A study of Mus musculus with 4 samples.

Results

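The 3 genes described here, Bglap, Bglap2 and Bglap3, form the osteocalcin gene cluster of the mouse. They were taken by name from the 32286 features of the count matrices, and all 3 were measured. They were chosen because earlier results on these same cells showed them lower after immobilization and present in nearly every cell type, so their levels are given as a description. Single-cell RNA-seq had been made from C57BL/6J mice of the genotype Tnfsf11tTA/+; LC1; R26-tdTomato. In these mice 1 allele of Tnfsf11, the RANKL gene, drives a tetracycline transactivator that switches on a Cre transgene (LC1), which in turn switches on tdTomato for good in the cell and its descendants. Every animal of both groups carried these alleles and was under doxycycline from E0 to birth, which suppressed labelling in the fetus. One group had its hindlimbs immobilized for 2 weeks from 8 weeks of age, the other served as control, and both were 10 weeks old at harvest. Femurs and tibias of both limbs were used, and live CD45.2-Ter119-tdTomato+ cells from flushed marrow and digested bone were sorted. Cells of 4 control mice were pooled into 1 sample and cells of 6 immobilized mice into another, so no comparison between the groups has a replicate, and the tdTomato label marks past or present Tnfsf11 activity in a lineage rather than a cell type.

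Osteocalcin is a small, secreted protein of bone matrix. Mature osteoblasts make it late in their differentiation, vitamin K-dependent gamma-carboxylation of its glutamate residues lets it bind calcium and hydroxyapatite, and serum osteocalcin is a routine marker of bone formation. In the mouse, Bglap and Bglap2 are the bone-expressed copies, while Bglap3 is best known from kidney and other tissues.

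All 3 genes lie on the minus strand of chromosome 3 within 15.849 kb, in GENCODE vM21 on GRCm38. Bglap3 (ENSMUSG00000074489) spans 88368616 to 88372743, Bglap2 (ENSMUSG00000074486) 88377736 to 88378699 and Bglap (ENSMUSG00000074483) 88383501 to 88384464, and each is annotated as protein coding. The coding sequence has 288 bases in each copy. Bglap and Bglap2 differed at 4 coding bases (98.6% identity) and at none of the 134 bases after the stop codon. Bglap3 differed from Bglap at 13 coding bases (95.5% identity) and at 2 bases after the stop. The last 132 coding bases, from base 157 to base 288, show how little a read from the 3' end has to tell the copies apart. They are printed 5' to 3' from the GENCODE transcripts, with capitals at the 8 positions where at least 1 copy differs.
Bglap: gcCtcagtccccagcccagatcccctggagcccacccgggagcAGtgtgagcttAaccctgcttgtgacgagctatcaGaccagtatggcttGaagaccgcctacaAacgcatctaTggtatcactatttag
Bglap2: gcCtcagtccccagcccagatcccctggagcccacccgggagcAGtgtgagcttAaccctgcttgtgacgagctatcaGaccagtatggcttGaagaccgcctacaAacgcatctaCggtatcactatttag
Bglap3: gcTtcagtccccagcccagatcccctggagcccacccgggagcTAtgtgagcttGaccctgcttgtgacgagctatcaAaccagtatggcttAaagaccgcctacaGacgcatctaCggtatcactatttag
Over this stretch 1 position is particular to Bglap and 7 are particular to Bglap3, while none is particular to Bglap2. Of all 90-base windows in the last 300 bases of the transcript, 42.7% occurred in neither of the other copies for Bglap, 42.7% for Bglap2 and 100% for Bglap3. The split of reads between Bglap and Bglap2 is therefore uncertain, and the sum of the 3 genes is the main measure below.

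The matrices hold unique molecular identifier (UMI) counts, 1 UMI standing for 1 captured transcript. The control lanes held 10732720 and 10860328 UMIs and the immobilized lanes 9960011 and 10084134. The lanes of a group shared nearly all barcodes (1617 of 1620 in the control group) and differed by less than the sampling noise, with a mean chi-square per gene of 0.539 and 0.586, so they were averaged and counted as 1 sample. UMI numbers can therefore end in 0.5. After filtering, 1411 control and 1394 immobilized cells remained, with median depths of 5576.5 and 5706.5 UMIs, and they fell into 17 clusters, formed without the 3 osteocalcin genes. Osteoblast-like cells numbered 480 and 487, osteo-primed stromal-like cells (Wif1, Limch1, Tnc, Mmp13) 196 and 333, Lepr+ CAR stromal-like cells, which resemble the Cxcl12-abundant reticular cells of marrow, 568 and 354, and haematopoietic-like cells 69 and 111. The haematopoietic-like cells, which the gate was meant to remove, consist of granulocyte-like, B lineage-like and erythroid-like cells. Blood cells were assumed not to transcribe osteocalcin, which was not tested, and on that assumption their UMIs serve as the background. Free RNA in the suspension can add UMIs to a droplet whatever its cell, and whether it did so evenly was not tested. Levels are given as UMIs per cell and also as UMIs scaled to a fixed total of the same cells (CPM, the usual depth-scaled unit). All intervals are 95% intervals that cover counting error only, as if each UMI were independent, and they say nothing about the spread between mice.

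In the control pool the osteocalcin genes were far higher in osteoblast-like cells than in any other class. Osteoblast-like cells had 432 UMIs per cell (429.7 to 433.4) and held 97.3% of all osteocalcin UMIs of the pool. The 27 cycling cells, a state rather than a type, averaged 45.9 (43.4 to 48.6), but 1 cell held 1050 UMIs and their median was 7. Osteo-primed stromal-like cells had 7.47 (7.09 to 7.86). Lepr+ CAR stromal-like cells had 4.29 (4.12 to 4.46), granulocyte-like cells 3.83 (3.25 to 4.48), B lineage-like cells 3.50 (2.67 to 4.51), endothelial-like cells 4.00 (2.80 to 5.54) and pericyte or smooth muscle-like cells 3.89 (3.39 to 4.43). Among the classes from Lepr+ CAR to pericyte or smooth muscle-like these intervals overlap, so the order among them is not resolved. The 11 erythroid-like cells stood somewhat higher, at 6.18 (4.80 to 7.84).

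All classes were lower in the immobilized pool. Osteoblast-like cells had 106 UMIs per cell (105.1 to 107.0) and held 96.9% of the pool's osteocalcin UMIs. Osteo-primed stromal-like cells had 2.54 (2.37 to 2.72) and Lepr+ CAR stromal-like cells 1.19 (1.08 to 1.31). The 43 cycling cells had 4.08 (3.50 to 4.73), with a median of 2.5. The 17 endothelial-like cells had 1.56 (1.02 to 2.28) and the 8 pericyte or smooth muscle-like cells 1.81 (1.00 to 3.01), and both intervals overlap that of the Lepr+ CAR class. Granulocyte-like cells had 1.10 (0.830 to 1.42), B lineage-like cells 0.80 (0.413 to 1.40) and erythroid-like cells 1.40 (1.07 to 1.79). The 41 osteocyte-like cells were named from markers such as Dmp1, Mepe and Phex, of which only Mepe is among their 10 leading genes. They had 1.35 (1.02 to 1.76), within the interval of the blood cells, and the 5 such cells of the control pool had 5.00 (3.24 to 7.38). Their median depth of 2237 UMIs in the immobilized pool was under that of osteoblast-like cells, 8017.

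**Figure D1:**
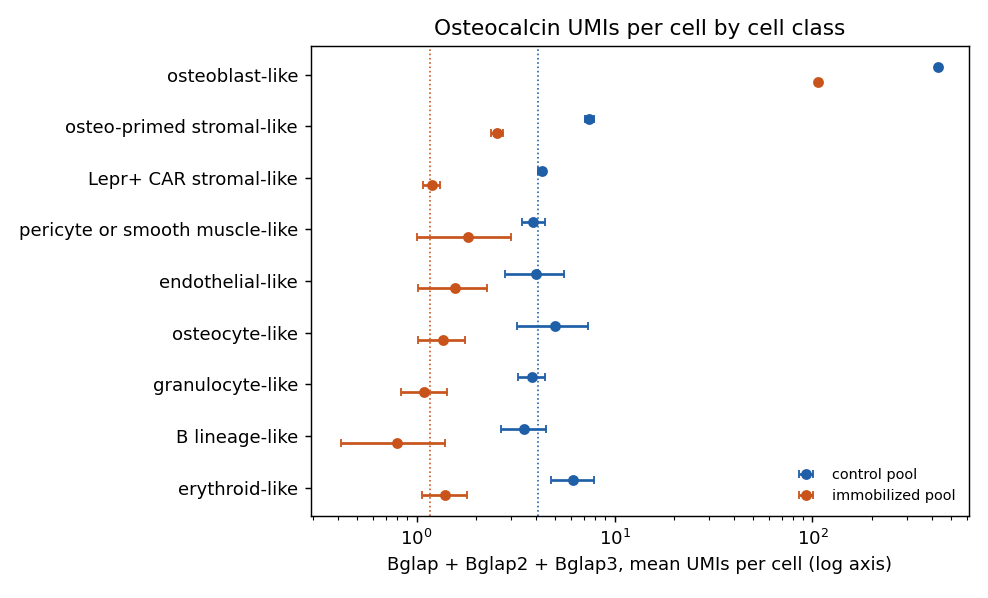
Mean UMIs per cell of Bglap, Bglap2 and Bglap3 together (log axis) in 9 cell classes of the control (blue) and immobilized (orange) pool. Points are means over cells with exact Poisson 95% intervals, and dotted lines mark the haematopoietic-like level of each pool, 4.12 and 1.18: osteoblast-like and osteo-primed cells lie to the right of them, and Lepr+ CAR stromal-like cells lie on them.

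Lepr+ CAR stromal-like cells carried as much osteocalcin RNA per cell as blood cells did, in both pools. Against haematopoietic-like cells, at 4.12 UMIs per cell (3.66 to 4.63) and 1.18 (0.983 to 1.40), the ratio was 1.04 for control cells (0.920 to 1.18) and 1.02 for immobilized ones (0.833 to 1.25). The difference of the class from blood cells was 0.167 UMIs per cell (-0.341 to 0.676) and 0.0192 (-0.212 to 0.251). Cluster 0 of this class has a fibroblast marker, Scara5, and none of its own markers among its 10 leading genes, so the clusters are also given one by one. In the control pool clusters 0, 4, 8 and 15 had 4.26, 4.15, 4.38 and 4.33 osteocalcin UMIs per cell, and in the immobilized pool 1.19, 1.23, 1.17 and 1.20. No cluster of the class stood apart from the rest, and without cluster 0 the ratios to blood cells were 1.04 and 1.02.

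Osteocalcin UMIs did not follow the size of the cell in Lepr+ CAR stromal-like cells, and in blood cells the intervals of the depth bins overlapped. With the cells of a class divided into 4 equal depth bins by their total UMIs, the shallowest to the deepest bin of Lepr+ CAR stromal-like cells had 4.18, 4.39, 4.43 and 4.16 osteocalcin UMIs per cell in the control pool, while the median depth went from 2236.5 to 7061.5. In the immobilized pool these bins had 1.18, 1.26, 1.12 and 1.22. Haematopoietic-like cells of the control pool had 3.72, 4.32, 3.85 and 4.62. Those of the immobilized pool had 0.964, 1.25, 1.02 and 1.48, with overlapping intervals (0.635 to 1.40 in the shallowest and 1.06 to 2.02 in the deepest bin). In both other classes the count went up with depth, from 70.6 to 951 in control osteoblast-like cells and from 4.98 to 12.2 in control osteo-primed stromal-like cells. After immobilization it went from 18.0 to 232 and from 1.67 to 3.42 in the same classes. By CPM these classes parted. From the shallowest to the deepest bin, osteoblast-like cells rose from 14685 to 49665 (control) and from 4284 to 16979 (immobilized). Osteo-primed stromal-like cells fell from 1580 to 881 and from 526 to 332, and control Lepr+ CAR stromal-like cells fell from 1927 to 546.

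**Figure D2:**
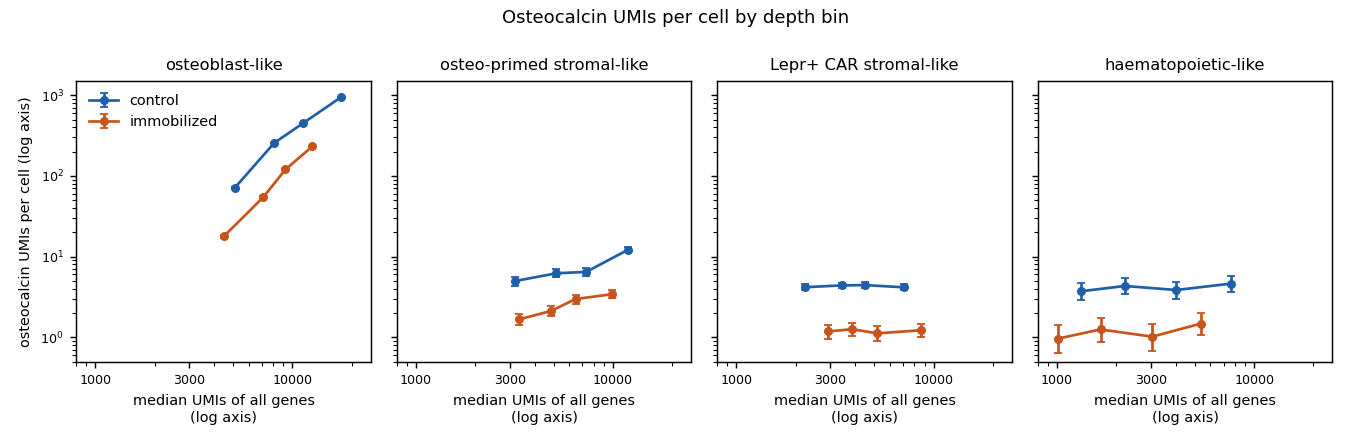
Osteocalcin UMIs per cell (log axis) against the median number of UMIs of all genes (log axis) for the 4 depth bins of each class, control in blue and immobilized in orange, with exact Poisson 95% intervals. The lines climb in osteoblast-like and osteo-primed stromal-like cells and stay nearly level in Lepr+ CAR stromal-like and haematopoietic-like cells, where the deepest immobilized bin is at 1.48 and the shallowest at 0.964.

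The spread between cells followed the same division. For a count with the same mean in every droplet the variance equals the mean. The ratio of variance to mean was 1.41 (control) and 1.13 (immobilized) for Lepr+ CAR stromal-like cells, and 1.45 and 0.919 in haematopoietic-like cells. It was 6.32 and 3.30 in osteo-primed stromal-like cells, and 664 and 287 in osteoblast-like cells. The highest single Lepr+ CAR stromal-like cell had 13.0 osteocalcin UMIs in the control pool and 5.00 in the immobilized pool, against 3543.5 and 1182 for osteoblast-like cells.

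Before thinning, the share of cells with an osteocalcin UMI was similar in Lepr+ CAR stromal-like and blood cells. In the control pool 98.2% of Lepr+ CAR stromal-like cells and 97.8% of haematopoietic-like cells had at least 1 UMI, at median depths of 3973.25 and 2854.5. In the immobilized pool the shares were 67.1% and 71.6%, at 4446.75 and 2209. A Poisson count with the mean of the class would give 98.6% and 98.4% in the control pool and 69.7% and 69.1% in the immobilized pool. With every cell thinned to 1000 UMIs the shares in the control pool were 64.1% of Lepr+ CAR stromal-like and 66.4% of haematopoietic-like cells, after 4 and 5 shallower cells were left out. In the immobilized pool they were 23.9% and 39.1%, with 3 and 13 cells left out. Osteoblast-like cells had a UMI in 99.8% and 94.9% of cells, or 93.8% and 73.6% after thinning.

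Scaling by depth changed the picture of the low classes. By CPM, Lepr+ CAR stromal-like cells stood at 966 and 227 and haematopoietic-like cells at 885 and 390, a ratio of 1.09 (0.965 to 1.24) in the control pool and 0.582 (0.478 to 0.714) in the immobilized pool. In the immobilized pool the shallower haematopoietic-like cells thus had the higher CPM at a like number of UMIs per cell.

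Other genes of bone matrix showed which signals behave like the osteocalcin genes. For each gene the UMIs per cell of a class were taken as a percentage of those in osteoblast-like cells of the same pool. In the control pool Bglap stood at 0.959% in haematopoietic-like cells and 0.995% in Lepr+ CAR stromal-like cells, and Bglap2 at 0.893% and 0.984%. Bglap3, with only 8.5 UMIs in blood cells, stood at 1.85% and 1.11%. Col1a1, the main collagen gene of bone, had 0.444% and 0.384%, and Ifitm5, a membrane protein gene of osteoblasts, 1.19% and 0.942%. Smpd3 had 0.394% and 0.271%, and Cthrc1 1.28% and 0.994%. For Bglap, Bglap2, Col1a1 and Ifitm5 the percentages in both classes lay close together in this pool. The percentages in blood cells were not the same for all of them, with Bglap above Col1a1. Col1a2 lay further apart, at 0.468% in blood cells and 0.987% in Lepr+ CAR stromal-like cells. In the immobilized pool Bglap had 1.18% and 1.11%, and Col1a1 0.348% (0.307 to 0.393) and 0.486% (0.459 to 0.515).

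Several matrix genes lay far above the blood-cell percentage in Lepr+ CAR stromal-like cells. Ibsp, which encodes bone sialoprotein, had 1.44% in blood cells and 42.3% in Lepr+ CAR stromal-like cells. Spp1, the osteopontin gene, had 4.85% and 64.2%, and Bgn, the biglycan gene, 1.45% and 27.9%. Expressed per UMI of Col1a1 and Col1a2, osteocalcin reached 0.249 UMIs in osteoblast-like, 0.523 in haematopoietic-like, 0.387 in Lepr+ CAR stromal-like and 0.134 in osteo-primed stromal-like cells of the control pool.

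**Figure D3:**
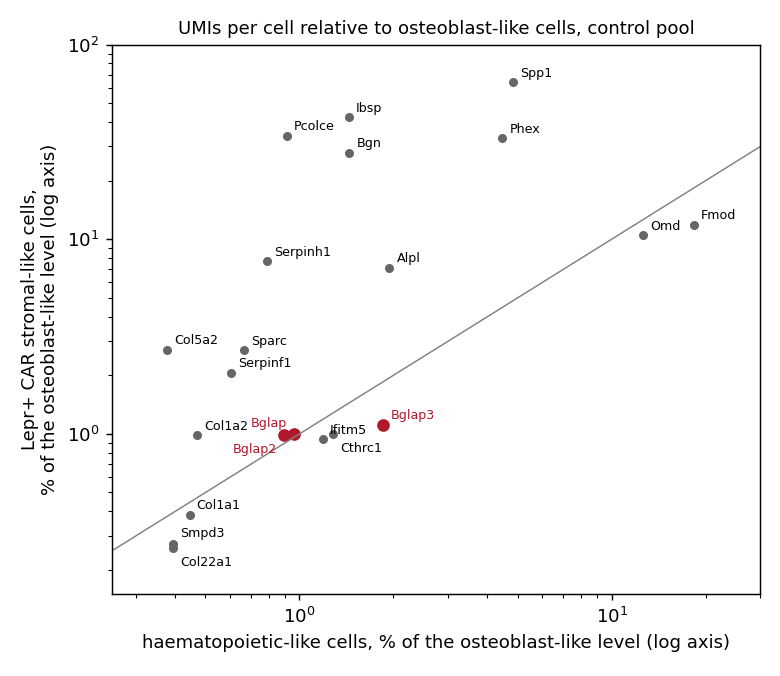
UMIs per cell in haematopoietic-like cells (x axis, log) and Lepr+ CAR stromal-like cells (y axis, log), each as a percentage of osteoblast-like cells, for the osteocalcin genes (red) and matrix genes (grey) of the control pool. The line marks equal percentages: Bglap and Bglap2 lie on it near 1%, Bglap3 lies below it, and Ibsp, Spp1 and Bgn lie far above it. Dmp1 and Mepe, at 0 in haematopoietic-like cells, are not drawn.

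Osteo-primed stromal-like cells lay above the level of the pooled haematopoietic-like cells, though in the control pool their interval overlapped that of erythroid-like cells alone. Their osteocalcin UMIs per cell were 1.81 times those of haematopoietic-like cells among control cells (1.59 to 2.06) and 2.16 times after immobilization (1.80 to 2.62). The difference was 3.34 UMIs per cell (2.73 to 3.96) and 1.37 (1.10 to 1.63). By CPM the classes differed less, at 1011 and 885 in the control pool, a ratio of 1.14 (1.01 to 1.30), and at 411 and 390 in the immobilized pool, 1.05 (0.875 to 1.28). With all cells thinned to 1000 UMIs the ratio was 0.748 and 0.860, below 1. Thinning scales by depth, and osteo-primed stromal-like cells were the deeper ones, with medians of 6058.5 and 5588.5 UMIs.

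The class is made of clusters 9 and 11, both above the pooled blood cells. Cluster 9, led by Megf10, Mmp9 and Spp1, had 8.43 UMIs per cell (7.83 to 9.07) among control cells and 2.82 (2.55 to 3.12) after immobilization. Cluster 11 had 6.71 (6.24 to 7.22) and 2.34 (2.13 to 2.57). Erythroid-like cells alone, 11 in the control pool, had 6.18 (4.80 to 7.84), an interval that overlaps those of both control clusters. In the immobilized pool they had 1.40 (1.07 to 1.79), under both clusters. The median osteo-primed cell had 5.50 and 2.00 UMIs, against 4.00 and 1.00 in haematopoietic-like cells, and the highest had 49 and 27. Whether some of these droplets also held an osteoblast-like cell was not tested beyond Scrublet's doublet calls, which had been left out.

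The UMIs assigned to Bglap and Bglap2 did not stand in the same proportion in every class. How reads shared by the copies were assigned is not known, so these are shares of assigned UMIs. Bglap2 made up 27.3% of Bglap and Bglap2 UMIs in osteoblast-like cells of control mice (27.1 to 27.5) and 28.3% after immobilization (27.9 to 28.7). Lepr+ CAR stromal-like cells had nearly the same share, 27.1% (25.3 to 28.9) and 28.6% (24.3 to 33.2). So had haematopoietic-like cells, at 25.9% (20.8 to 31.5) and 24.0% (16.9 to 32.3).

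Osteo-primed stromal-like cells had more Bglap2, 35.2% (32.8 to 37.8) in control and 34.2% (31.0 to 37.6) in immobilized animals, 7.95 and 5.93 percentage points above osteoblast-like cells. Cluster 9 had the higher share, at 39.2% (35.6 to 42.9) and 39.4% (34.5 to 44.5). Cluster 11 had 31.4% (28.1 to 34.9) and 29.8% (25.6 to 34.3), above osteoblast-like cells by more than the interval in the control pool alone. After the blood-cell level was subtracted, cluster 9 of the control pool had 2.01 Bglap and 2.17 Bglap2 UMIs per cell, and that of the immobilized pool 0.787 and 0.808. Cluster 11 had 1.56 and 1.04 in the control pool and 0.733 and 0.408 in the immobilized pool, so that after subtraction Bglap2 was a larger part in both clusters than in osteoblast-like cells. There it was 115 beside 306 UMIs of Bglap in the control pool and 29.4 beside 74.2 in the immobilized pool. No interval was computed for these subtracted shares. The 5 cells with the most Bglap2 held 14.2% and 12.5% of the Bglap2 UMIs of the osteo-primed class, and the 5 highest of cluster 9 held 25.2% and 23.3% of those of the cluster. Within osteoblast-like cells the share was between 26.1% and 28.5% over the 4 clusters of the control pool and between 28.1% and 28.7% in the immobilized pool.

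**Figure D4:**
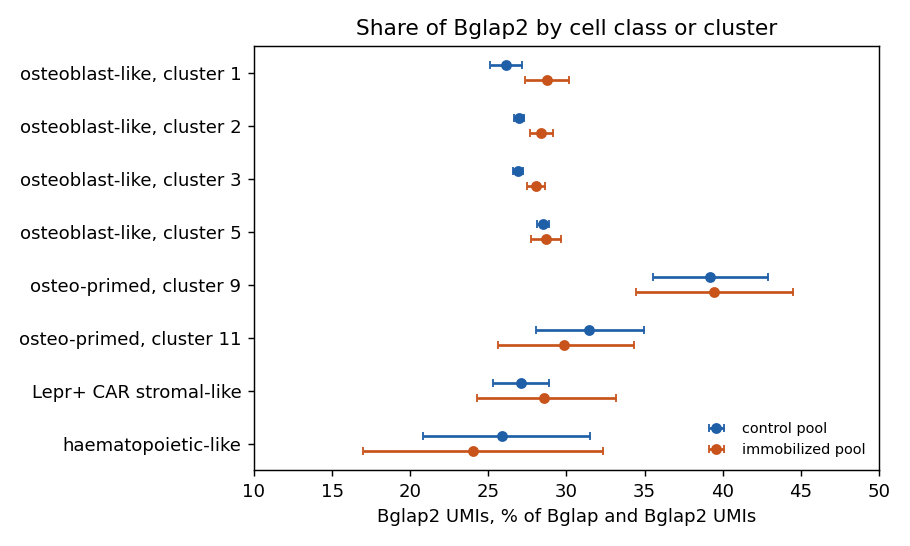
Bglap2 UMIs as a percentage of Bglap and Bglap2 UMIs (x axis) in osteoblast-like and osteo-primed stromal-like clusters and 2 classes, control in blue and immobilized in orange, with exact Clopper-Pearson 95% intervals. Cluster 9 lies near 39% in both pools, and the osteoblast-like clusters lie between 26.1% and 28.7%.

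Bglap3 was the least abundant copy throughout. It made up 1.54% of osteocalcin UMIs in osteoblast-like cells of control mice (1.49 to 1.59) and 1.28% after immobilization (1.18 to 1.38). Osteoblast-like cells had 6.64 and 1.36 Bglap3 UMIs per cell, and 75.1% and 41.7% of them had at least 1. In Lepr+ CAR stromal-like cells Bglap3 had 42.0 UMIs over 568 cells and 10.0 over 354.

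The control and immobilized pools were then compared class by class. In osteoblast-like cells Bglap had 28339 CPM among control cells against 8793 CPM after immobilization, which is -1.69 on the log2 scale (-1.70 to -1.67). Bglap2 had 10642 against 3472 CPM, or -1.62 (-1.64 to -1.59), and Bglap3 had 610 against 159 CPM, or -1.94 (-2.06 to -1.82). All 3 genes were lower by more than 1 on the log2 scale, against 0.644% of the 8079 genes with at least 50 UMIs in 1 pool. The genes were selected for this difference, so that share is given for scale only. From the lowest log2 ratio upward, Bglap3 ranked 9, Bglap 10 and Bglap2 11 of these genes. The median log2 ratio of all genes in this class was 0.20, and relative to the median over genes with 50 UMIs in both pools the members stood at -1.90 (Bglap), -1.83 (Bglap2) and -2.15 (Bglap3).

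The sum of the 3 genes went from 39591 to 12424 CPM in osteoblast-like cells, a log2 ratio of -1.67 (-1.69 to -1.66), and per cell it was lower by 2.02 on the log2 scale. The distributions overlapped widely. The median cell had 233.75 osteocalcin UMIs among control cells and 23 after immobilization, with quartiles of 39.0 and 634 in the one and 3.00 and 145.25 in the other.

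The other classes were lower too. In osteo-primed stromal-like cells the log2 ratio of CPM was -1.27 for Bglap, -1.33 for Bglap2 and -1.53 for Bglap3, with 0.715% of 6432 genes lower by at least 1. Lepr+ CAR stromal-like cells gave -2.13 for Bglap, -2.02 for Bglap2 and -1.58 for Bglap3, with 0.81% of 7528 genes lower by at least 1. Bglap3 had under 50 UMIs in both of these classes and is not among the genes counted. For the sum, the log2 ratio in osteo-primed stromal-like cells was -1.30 (-1.42 to -1.18), in Lepr+ CAR stromal-like cells -2.09 (-2.24 to -1.94) and in haematopoietic-like cells -1.18 (-1.49 to -0.88).

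Counted per cell, Lepr+ CAR stromal-like and blood cells differed between the pools by amounts near that of osteoblast-like cells, slightly less for Lepr+ CAR stromal-like cells. The log2 ratio of UMIs per cell was -2.02 in osteoblast-like, -1.84 in Lepr+ CAR stromal-like, -1.81 in haematopoietic-like, -1.80 in granulocyte-like and -2.14 in erythroid-like cells. The difference of these ratios between Lepr+ CAR stromal-like and osteoblast-like cells was 0.18 (0.03 to 0.33). Between Lepr+ CAR stromal-like and haematopoietic-like cells it was -0.04 (-0.37 to 0.30), whereas by CPM it was -0.91 (-1.24 to -0.57). Endothelial-like cells had -1.35 (-2.14 to -0.60), pericyte or smooth muscle-like cells -1.05 (-1.98 to -0.34) and cycling cells, whose control mean rests on 1 cell, -3.49. Osteo-primed stromal-like cells had -1.55 (-1.68 to -1.43), and less the blood-cell level they went from 3.34 to 1.37 UMIs per cell. UMIs of neutrophil genes in these classes went the other way. The neutrophil granule genes S100a8, S100a9, Ngp, Camp and Ltf together had 0.771 UMIs per control and 1.78 per immobilized Lepr+ CAR stromal-like cell, and 0.820 and 1.58 per osteoblast-like cell. Haemoglobin genes were uneven over the classes. They had 0.723 UMIs per control and 2.47 per immobilized Lepr+ CAR stromal-like cell. Osteoblast-like cells had 0.273 and 0.338, and granulocyte-like cells 0.110 and 0.260. The part of free RNA in the osteocalcin difference of the osteo-primed class was not tested beyond subtracting the blood-cell level.

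Among osteoblast-like clusters the log2 ratio of osteocalcin CPM ranged from -2.03 to -1.26. Cluster 2, the richest, had 657.5 UMIs per control cell and 211 per immobilized cell, a log2 ratio of CPM of -1.26 (-1.29 to -1.24). Cluster 2 has the cartilage collagen gene Col2a1 among its leading genes, and without it the class stood at -1.70. Cluster 3 had 524 and 148 UMIs per cell (-1.53), and cluster 5 333 and 96.9 (-1.47). Cluster 1, the poorest, had 105 and 24.5 (-2.03). It made up 71 of 480 control and 163 of 487 immobilized osteoblast-like cells. With the clusters given the same weights in both pools the log2 ratio of the class was -1.48.

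The sexes of the cells gave different values in osteoblast-like cells. Each cell was called female or male from Xist and Y-linked UMIs, and the sources used here do not say how many mice of each sex a pool held. Female cells made up 92.4% of sexed control and 77.8% of sexed immobilized osteoblast-like cells. Female osteoblast-like cells had 463 osteocalcin UMIs per control cell (424 cells) and 99.4 per immobilized cell (353 cells), with medians of 273.25 and 21.5. Their log2 ratio of CPM was -1.82 (-1.84 to -1.81).

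Male osteoblast-like cells had 157 UMIs per control cell (35 cells) and 145 per immobilized cell (101 cells). Their log2 ratio of CPM was -0.28 (-0.32 to -0.23), and the median was higher in the immobilized pool, 38.5 against 17.0. The 5 richest of the 35 male control cells held 61.4% of their osteocalcin UMIs, and 19 of the 35 belonged to cluster 1. Within 3 clusters the male cells were lower in the immobilized pool, by log2 ratios of -0.60 in cluster 1 (19 and 30 cells), -0.95 in cluster 3 (11 and 47 cells) and -0.98 in cluster 5 (4 and 13 cells), against -2.51, -1.60 and -1.46 in female cells. Cluster 2 had 1 male control cell, at 32 UMIs, and 11 male immobilized cells, at 386 per cell. Unsexed cells of cluster 1, 5 control and 11 immobilized, had a log2 ratio of 0.23 (-0.17 to 0.67). The difference between the pools was thus larger in female than in male osteoblast-like cells, and with 1 pool a group a difference between sexes and one between single mice cannot be told apart.

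Low classes showed less of this. Lepr+ CAR stromal-like cells had 4.37 osteocalcin UMIs per female and 4.31 per male cell in the control pool, and 1.26 and 1.17 in the immobilized pool. Osteo-primed stromal-like cells had 8.45 per female and 5.77 per male cell in the control pool, and 2.84 and 2.35 in the immobilized pool, log2 ratios of CPM of -1.26 and -1.18.

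**Figure D5:**
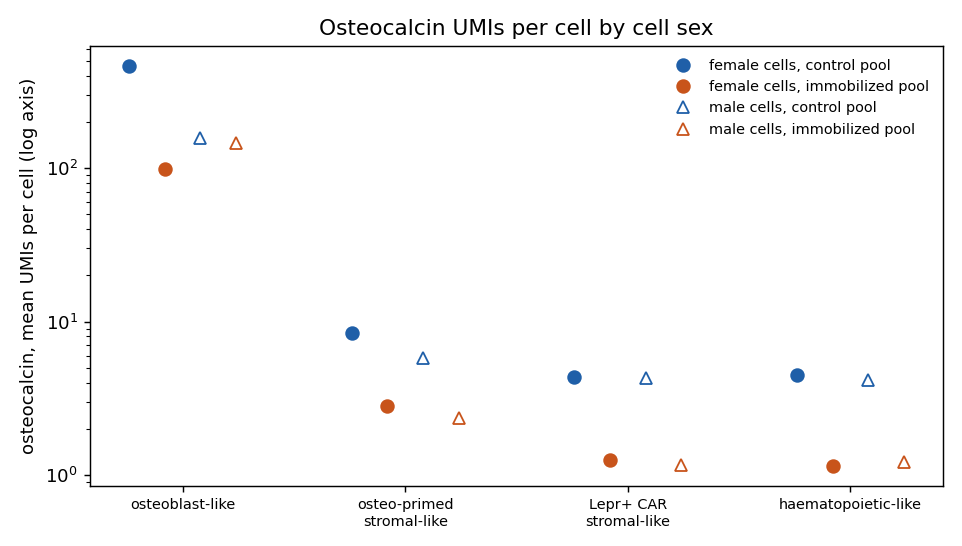
Mean osteocalcin UMIs per cell (log axis) in 4 classes, for female (filled circles) and male (open triangles) cells of the control (blue) and immobilized (orange) pool, without error bars. In osteoblast-like cells the female values are 463 and 99.4 and the male values 157 and 145, while in Lepr+ CAR stromal-like cells the sexes lie together within each pool.

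None of the other osteoblast matrix genes was lower by as much as the osteocalcin genes in osteoblast-like cells. Of 20 matrix genes, 10 had an interval below 0 and 10 an interval above 0, and the median was 0.01, against 0.20 over all genes. These intervals cover counting error only, and the share of all genes with such an interval is not given here. The lowest stood at -0.97, so none was lower by 1 or more, against 0.644% of all 8079 genes. Col1a1 stood at 91404 and 79637 CPM (-0.20), its partner chain Col1a2 at -0.16, the collagen-binding Sparc at -0.38 and the fibrillar collagen Col5a2 at -0.10. Ibsp (0.39) and Spp1 (1.5) were higher. Per UMI of Col1a1 and Col1a2, osteocalcin went from 0.249 to 0.0887 in these cells. With Sparc or Ibsp as the reference the log2 ratio of osteocalcin was -1.29 and -2.06 in place of -1.49. In Lepr+ CAR stromal-like cells the list had 11 of 12 counted genes below 0, with a median of -0.40 against 0.01 over all genes.

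Genes that act on the osteocalcin protein had small differences. Of 7 genes of the vitamin K cycle and gamma-carboxylation, 5 had enough UMIs in osteoblast-like cells, 2 lower and 3 higher. Their median was 0.27, against 0.20 over all genes. Ggcx, the gamma-glutamyl carboxylase gene, stood at 35.6 and 33.8 CPM (-0.08, -0.40 to 0.25), so no difference was detectable at the depth of these cells. Vkorc1, which recycles vitamin K, stood at 431 and 316 CPM (-0.45, -0.55 to -0.35), and its paralog Vkorc1l1 at 0.44. Furin, a proprotein convertase gene, had 0.40 and Calu, an inhibitor of the carboxylase, 0.27.

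Other genes of proteins with a Gla domain did not go with osteocalcin. Of 13 such genes, 4 had enough UMIs in the osteoblast-like class, and their median was 0.63, against 0.20 over all genes. Gas6, a ligand of TAM receptors, had 0.69, the anticoagulant gene Pros1 0.59, Prrg1 0.68 and Prrg2 -0.22. Mgp, the matrix Gla protein gene, had only 20.0 and 27.0 UMIs in these cells. The proposed osteocalcin receptors were nearly absent from the sorted cells. Gprc6a had 0 UMIs over all cells of either pool, Gpr158 had 0.5 and 2.5, and Gpr37 had 31.0 and 27.5.

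Transcription factors known to act at osteocalcin promoters had a median close to that of all genes. Of 20 genes, 17 were counted in osteoblast-like cells, 7 lower and 10 higher. Their median was 0.26, against 0.20 over all genes. Runx2, the master regulator of osteoblasts, stood at 1252 and 2145 CPM (0.78), the vitamin D receptor gene Vdr at 0.74 and Sp7, which encodes osterix, at 0.35. Of the AP-1 genes, Junb (-0.70) and Jund (-0.20) were lower and Fosl2 (0.59, 0.25 to 0.94) was higher. Hes1, a Notch target and repressor, was the only one lower by 1 or more, at 131 and 65.2 CPM (-1.0, -1.21 to -0.80). Of all 8079 genes counted in the class, 0.644% were lower by that much.

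Beside the cluster on chromosome 3, Glmp alone of the genes counted in osteoblast-like cells had an interval below 0. It was lower by less than the osteocalcin genes, and the share of all genes with an interval below 0 is not given here. Of the 4 nearest genes on each side, 5 had enough UMIs in osteoblast-like cells. Smg5, of nonsense-mediated decay, had a log2 ratio of 0.32 (-0.02 to 0.66), Pmf1, of the kinetochore, -0.27 (-0.93 to 0.36), Slc25a44, a mitochondrial carrier, -0.24 (-0.76 to 0.27) and Lmna, of the nuclear lamina, -0.13 (-0.29 to 0.03). Glmp, a lysosomal membrane protein gene 37302 bases from Bglap3, stood at 39.4 and 22.4 CPM (-0.81, -1.18 to -0.46). It was also lower in osteo-primed (-0.64, -1.15 to -0.14) and Lepr+ CAR stromal-like cells (-0.49, -0.97 to -0.03). Paqr6, 74 bases from Bglap3 and on the opposite strand, had 6.5 and 0 UMIs, Tmem79 16 and 10.5, and Sema4a 8.00 and 4.5.

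The genes whose levels were most like the osteocalcin sum were found over 31 profiles, each the cells of 1 cluster in 1 pool. Likeness was Pearson's correlation of log2(CPM + 1), and since the profiles share libraries, free RNA and depth it is a description. Gm13446 came first (0.95), followed by Prss35 (0.92), BC055402 (0.91), Hrc (0.91), Drd4 (0.91), Col11a2 (0.90), Col11a1 (0.89), Ehf (0.89), Col1a1 (0.89) and Col2a1 (0.88). Between the pools, these genes parted in osteoblast-like cells. Col2a1 stood at 2282 and 582 CPM (-1.97, -2.03 to -1.91), BC055402 at -1.61 and Prss35 at -1.07. Col11a1 (-0.12) and Col11a2 (-0.14), chains of a fibrillar collagen of cartilage and bone, were nearly level.

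For Bglap and Bglap3, which were both lower, the windows around the annotated start sites were searched for known strings. RefSeq on GRCm38.p6 gives a window for Bglap at chr3:88384417-88384716 and 3 for Bglap3, of which the one shown lies at chr3:88369782-88370081, all on the minus strand, from 250 bases before to 50 after the start site. They are shown because bone transcription factors are known to act at the Bglap promoter. Capitals mark exact matches on either strand to the TATA box letters TATAAA. They also mark ACCACA, the core of a Runx site, and TTACATCA, the osteoblast element OSE1. CAATTA, the homeodomain core, is marked too. The E-box CANNTG was also searched and is not in capitals, since 72.3% of windows hold it.
Bglap promoter: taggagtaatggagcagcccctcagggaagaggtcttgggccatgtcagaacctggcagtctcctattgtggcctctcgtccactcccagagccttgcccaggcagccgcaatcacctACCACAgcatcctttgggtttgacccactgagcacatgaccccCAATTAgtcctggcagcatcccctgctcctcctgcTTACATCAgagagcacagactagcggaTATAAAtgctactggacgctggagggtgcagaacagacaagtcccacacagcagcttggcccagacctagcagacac
Bglap3 promoter: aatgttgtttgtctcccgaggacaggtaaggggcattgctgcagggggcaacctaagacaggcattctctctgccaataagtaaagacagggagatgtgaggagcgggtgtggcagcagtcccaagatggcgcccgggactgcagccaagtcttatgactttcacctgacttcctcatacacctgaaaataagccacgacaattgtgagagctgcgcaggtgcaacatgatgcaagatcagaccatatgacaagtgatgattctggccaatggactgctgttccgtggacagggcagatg
In the Bglap window the TATA box began 27 bases before the start site, OSE1 54, the homeodomain core 89 and the Runx core 132 bases before it. It held 1 E-box. None of the 4 strings in capitals occurred exactly in the Bglap3 window or in those of its other start sites. Bglap3 is annotated over 4128 bases and Bglap over 964. Whether the windows cover corresponding stretches of these genes was not tested, and Bglap3 sequence outside them was not searched. The window of the start site at 88372741, not shown, holds TATATAAG, a TATA-like string that the exact search does not count. The E-box occurred 7 times in the window shown and 4 and 2 times in the others. Aligned end to end, the Bglap and Bglap3 windows shown were 47.2% identical. By the same measure the Bglap3 windows at 88372741 and 88369831 were 46.0% identical, although they share long runs of letters at shifted positions. The percentage therefore does not tell whether windows are alike. Among 32851 windows of this length, 13.6% held TATAAA, 16.8% ACCACA, 1.10% TTACATCA and 8.00% CAATTA. A match is a string of letters only, and Bglap2 had no entry.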

How the data were processed

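The authors deposited unnormalized UMI counts for each gene in each barcode. Per the file headers, Cell Ranger 7.0.0 produced them, and the submitters' processing notes name mm10. The annotation release, and how reads that fit several copies were treated, are not given in the sources used here. Barcodes and feature names were deposited as text. Of 32286 identifiers, 32235 matched GENCODE vM21.

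Cells present in both lanes with at least 500 genes and under 10% mitochondrial UMIs were kept, less Scrublet's doublet calls (18 of 1617 control and 9 of 1747 immobilized barcodes). The groups shared 3 barcodes. The lane sum was clustered with scanpy 1.11.5 (2000 variable genes without the osteocalcin genes, 30 components, 15 neighbours, Leiden resolution 1.0). Clusters were named from marker lists where at least 3 markers, and 30% of a list, were 2-fold higher.

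Levels are means over lanes. Ratios are immobilized over control, with a pseudocount of 0.5 UMIs, exact conditional binomial intervals and no test, since each group is 1 pool. Intervals for levels are exact Poisson, and for shares exact Clopper-Pearson. The code was tested on simulated data.

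The 3 genes and the gene lists were chosen with earlier results of these data known. From each list, genes with at least 50 UMIs in 1 pool were counted and up to 6 with the highest counts were named, and any other gene was named after its value was seen. Alternatives were the lanes, scaling, cell filters, doublets, clustering, cell sex and thinning.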

Additional observations from a re-analysis of the deposited data

How the results depend on the processing

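The osteocalcin and single-gene log2 ratios of the osteoblast-like, osteo-primed, Lepr+ CAR and haematopoietic-like classes were negative under every setting run, whereas single clusters split by sex were positive in 2 cases with few cells, at 2.91 (cluster 2, male, 1 control cell) and 0.23 (cluster 1, unsexed). Counting intervals of the osteoblast-like class are narrow, so most settings left them. From -1.67, its ratio of the sum went to -1.71 with totals without the osteocalcin genes, -1.89 by median-ratio scaling, -2.15 with the stricter cell filter (1000 genes, 5% mitochondrial UMIs), -1.51 with the looser filter (200 genes, 20%), -1.64 with Scrublet calls kept, -1.73 and -1.58 at Leiden resolutions 2.0 and 0.5, and -1.73 with the osteocalcin genes among the variable genes. It was -2.87 by the median over cells, -1.88 without the top 5% of cells, -1.82 in female and -0.28 in male cells, -1.48 at 1 cluster mix, -1.62 and -1.63 when thinned to 1000 and 2000 UMIs, and -1.70 without cluster 2. Osteo-primed cells went from -1.30 to -1.54 (stricter), -1.10 (looser), -1.48 (median) and -1.44 (without the top 5%), Lepr+ CAR stromal-like cells from -2.09 to -1.89 (female), and haematopoietic-like cells from -1.18 to -0.84 (resolution 0.5), -1.57 (median), -1.96 (male, 3 control cells), -1.57 (thinned to 1000) and -1.59 (2000).

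The ratio of Lepr+ CAR stromal-like to haematopoietic-like cells, 1.04 and 1.02, left its interval only on thinning, at 0.789 (control) and 0.551 (immobilized) with 1000 UMIs and 0.814 (immobilized) with 2000. That of osteo-primed cells, 1.81 and 2.16, was below 1 when thinned to 1000 UMIs, at 0.748 and 0.860. It was 1.14 and 1.33 at 2000, 2.38 and 2.78 at resolution 0.5, and 1.37 (median) and 1.38 (male) in the control pool. Thinning turns UMIs per cell into shares of a cell's UMIs, which depend on depth. The excess of Bglap2 in osteo-primed cells, 7.95 and 5.93 points, was positive throughout. In the control pool it was 4.79 at resolution 0.5, 4.99 in male cells, and 5.36 and 4.67 when thinned. In the immobilized pool it was 11.8 with the stricter filter and 9.69 in male cells. The cause of these shifts was not tested.

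With 1 lane left out, the ratios of the sum ranged from -1.67 to -1.67 (osteoblast-like), -1.31 to -1.29 (osteo-primed), -2.18 to -2.00 (Lepr+ CAR) and -1.25 to -1.12 (haematopoietic-like), the per-cell ratios from 1.00 to 1.08 and 0.95 to 1.09 (Lepr+ CAR) and from 1.78 to 1.84 and 2.05 to 2.29 (osteo-primed), and the Bglap2 excess from 7.24 to 8.68 and 5.34 to 6.51 points. A count minimum of 10 gave 219 genes lower by at least 1 in osteoblast-like cells in place of 52. Leaving out clusters 0 and 2 was chosen after seeing the data. No paired analysis was possible because each group is 1 pool and its lanes are runs of 1 library.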
